A study of Mus musculus with 18 samples.

Results

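Formalin injected into the hind paw was followed by RNA sequencing of 2 brain regions, the prelimbic medial prefrontal cortex (mPFC) and the bed nucleus of stria terminalis (BNST), and the question here was which genes moved alike in both regions and which moved differently. The 12 libraries compared, of 18 in the series, were chosen by their labels: 3 control and 3 formalin libraries from each region. All came from wild-type male C57BL/6 mice aged 6 to 8 weeks. Formalin mice received 10 µL of 1% formalin into the plantar hind paw and were killed 24 h later. Control mice received neither formalin nor adjuvant per the study's methods, while its captions for the sequencing call them sham-treated. Whether they received a vehicle injection is not stated, so the injection itself and formalin cannot be told apart here. Per the study's methods, each group had 3 brains, sliced on a matrix, and both regions came from every brain as pieces holding all cell types, though the file headers number the control animals differently in the BNST and the mPFC, and p-values measure the spread between these samples. In such bulk tissue, fewer cells of a type and less RNA per cell cannot be told apart. The other 6 libraries, from mice given complete Freund's adjuvant, entered the filter on low counts, the scaling and the estimate of the spread between replicates, but not the comparisons.

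The BNST is a group of largely GABAergic nuclei of the extended amygdala, known for its part in sustained anxiety and in the responses to stress. The prelimbic mPFC is a cortical area, built mainly of glutamatergic pyramidal neurons with inhibitory interneurons between them, known for top-down control of emotion and pain. Formalin in the paw causes a short inflammatory pain. Neurons answer a burst of activity by switching on immediate early genes such as Fos and Nr4a1 within minutes to hours, after which those transcripts return to baseline or below it.

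The libraries held 14781315 to 23408503 counts assigned to genes. Marker levels separated cortical from GABAergic tissue. Slc17a7, the vesicular glutamate transporter of cortical neurons, stood at 1698 to 1892 CPM (counts scaled by library size) in the mPFC and at 11.7 to 377 CPM in the BNST. Gad2, a GABA-synthesizing enzyme, stood at 161 to 188 CPM and 432 to 767 CPM. The summed level of 17 BNST and extended amygdala genes was 723 to 1010 CPM in the control BNST and 668 to 708 CPM in the formalin BNST. In the mPFC it was 376 to 414 CPM. For 8 thalamus genes the sums were 401 to 1089 CPM and 507 to 743 CPM in the BNST groups, and 119 to 140 CPM in the mPFC. Formalin BNST replicate 1 stood apart, with Slc17a7 at 377 CPM against 11.7 to 120.5 CPM in the other BNST libraries, and a summed level of 18 cortical pyramidal genes of 3213 CPM against 1610 to 2338 CPM. Without it 27 genes were called for the difference between regions and 2 for the BNST, against 30 and 57 with it. Only 20 of the 30 were among the 27. Of the 26 with a symbol 8 were lost, among them Ttyh2, Col11a2, Cdh7, Lrrtm3, Alcam, Negr1 and Dact2. The BNST pieces also differed in neighbouring tissue. The summed level of 14 choroid plexus genes was 69.8 to 827 CPM in the control BNST and 3138 to 9347 CPM in the formalin BNST, against 4.69 to 30.4 CPM in the mPFC. The summed level of 11 genes of ependymal cilia was 104.3 to 208.5 CPM and 314.5 to 344 CPM in the same groups. Ttr, the choroid plexus transthyretin, reached 2443, 7328 and 4692 CPM in the formalin BNST. The summed level of 16 striatal neuron genes was 2504 to 5499 CPM in the control BNST and 2175 to 2912 CPM in the formalin BNST. Sequencing lane also moved with the BNST groups: control replicates 1 and 2 carried the header mark of lane 1, formalin replicate 1 that of lane 3, and the remaining BNST libraries and every mPFC library that of lane 2. The part of neighbouring tissue in the results below was not tested. Values within lane 2 are given beside the interaction count and some gene lists, and for other counts only at the end.

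The formalin change of 30 genes differed between the regions, 0.158% of the 18994 genes tested. A gene was called when the interaction, the BNST change minus the mPFC change on the log2 scale, had an adjusted p under 0.05 in edgeR's quasi-likelihood test and exceeded 0.5 in size. In 9 genes (0.0474%) the BNST change lay above the mPFC change, and in 21 (0.111%) it lay below. An unadjusted p under 0.05 was reached by 2779 genes, 14.6% of those tested. Of the 30 genes, 26 had a symbol in the tables used here, 7 above and 19 below, and the genes named come from these.

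All 30 genes had changes of opposite sign in the BNST and the mPFC, as had 48.2% of all genes tested. The interaction is built from those same changes, so their signs are a description of the called genes. Over the 21 genes below, the median change was -0.40 in the BNST and 0.32 in the mPFC, and over the 9 genes above it was 0.38 and -0.51. The plot of regional changes shows both sets on either side of the diagonal. Taken region by region, 7 of the 30 passed in the BNST and 3 in the mPFC, while 20 passed in neither. Control and formalin libraries did not overlap in the BNST for 28 of the 30 (22.4% of all genes), in the mPFC for 27 (26.1%), and in both regions for 25 (5.7%, or 2.23% counting only genes with changes of opposite sign). The interaction test picked the 30 from these same libraries and favours separated groups, so these counts too are a description.

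**Figure D1:**
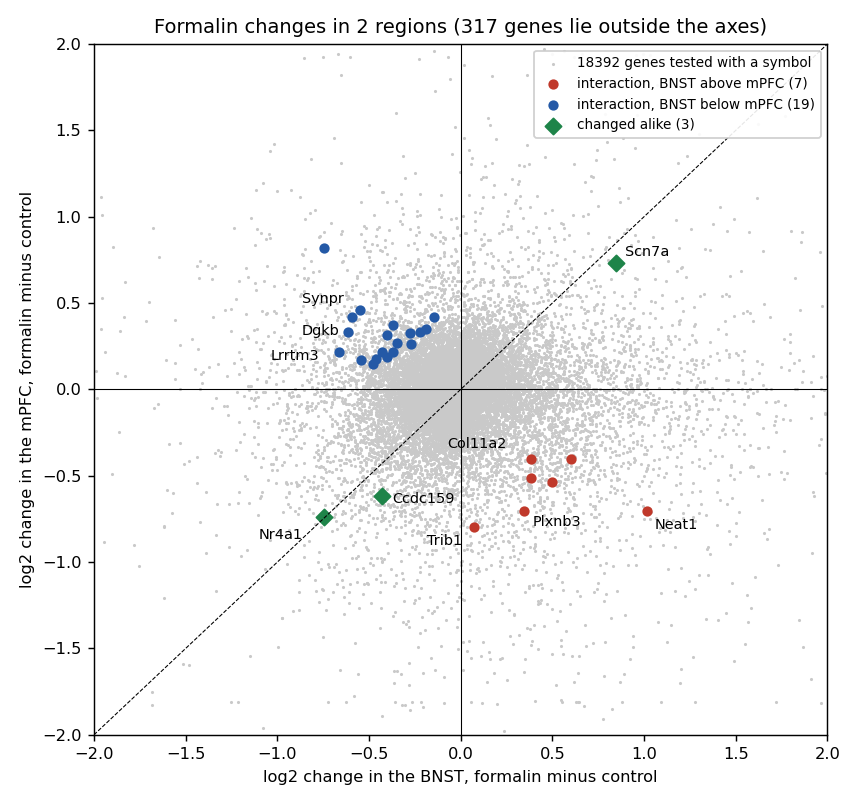
Each point is a gene with a symbol, placed by its log2 change (formalin minus control) in the BNST on the x axis and in the mPFC on the y axis, with equal changes on the dashed diagonal. The 7 red and 19 blue genes called for the interaction lie in the quadrants of opposite sign, the 3 green diamonds called as changed alike lie near the diagonal, and 317 genes fall outside the axes.

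The number of calls moved by over 1.5 times without any of 10 of the 13 libraries left out in turn. No gene was called without control mPFC replicate 2, without control mPFC replicate 3 or without formalin mPFC replicate 2, where 2498, 2091 and 2515 genes kept an unadjusted p under 0.05 in edgeR. It was 1 without formalin mPFC replicate 1, 5 without formalin BNST replicate 3, 9 without formalin mPFC replicate 3 and 16 without formalin BNST replicate 2, but 89 and 156 without control BNST replicate 1 or 3. It was 525 without replicate 2 of the adjuvant BNST group, the adjuvant library that was left out in turn. That group enters the filter, the scaling and the estimate of the spread, but not the comparison. With counts corrected for GC content it was 10, of which 5 lay above and 5 below. Within lane 2, where 1 control BNST library remained and was assumed to vary like the other groups, 367 genes were called, 20 of the 26 genes with a symbol among them. With a term for each brain, 12 genes were called when the replicate number named the brain and 5 when the animal number in the file headers did, 6 and 1 of the 26 among them. The direction of all 26 was the same under every alternative tried. The alternatives reuse the libraries in which these genes were picked for large interactions, so this describes the called genes.

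Among the 7 genes with a symbol and the BNST change above, Neat1 had the largest interaction. Neat1 (chr19:5824708-5845478, minus strand, GRCm38, GENCODE M21) is a long noncoding RNA that forms the scaffold of nuclear paraspeckles. It stood at 89.1, 94.5 and 88.8 CPM in the control BNST and at 175, 218 and 159 CPM in the formalin BNST. In the mPFC it stood at 50.01, 56.9 and 68.7 CPM in controls and at 44.3, 33.9 and 29.3 CPM after formalin. Every formalin library was thus above its controls in the BNST and below them in the mPFC. The log2 changes were 1.02 ± 0.18 (SE, n = 3 per group, adjusted p = 0.0402 in edgeR) and -0.70 ± 0.19 (adjusted p = 0.0978), and the interaction was 1.72 with a 95% interval of 1.17 to 2.27 (adjusted p = 0.0215).

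Plxnb3 encodes plexin-B3, a semaphorin receptor made by oligodendrocytes. Its control BNST levels of 50.3, 38.0 and 45.4 CPM lay below the formalin levels of 52.3, 60.6 and 56.9 CPM. In the mPFC the controls, at 21.6, 25.1 and 26.2 CPM, lay above the formalin libraries at 15.6, 14 and 15 CPM. The fall in the mPFC passed alone (-0.71, adjusted p = 0.0318 in edgeR), the BNST change of 0.35 did not (adjusted p = 0.159), and the interaction was 1.05 (0.67 to 1.43, adjusted p = 0.0262). Prr5l, a subunit that associates with the kinase complex mTORC2, had changes of 0.50 and -0.54 and an interaction of 1.03 (0.67 to 1.40). Ttyh2, a membrane protein of the tweety family, had an interaction of 1.01 (0.63 to 1.38), and its rise of 0.60 in the BNST passed (adjusted p = 0.0446).

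Kif13b is a kinesin motor that carries cargo along microtubules. It stood at 77.0, 67.3 and 62.8 CPM in the control BNST and at 89.2, 87.1 and 93.9 CPM after formalin, and in the mPFC at 50.1, 56.7 and 58.5 CPM and at 39.8, 37.9 and 38.2 CPM. The interaction was 0.89 (0.61 to 1.18, adjusted p = 0.0204 in edgeR), with a fall of 0.51 on the log2 scale in the mPFC that passed alone. Col11a2, a fibrillar collagen chain, had changes of 0.38 and -0.40 and an interaction of 0.78 (0.48 to 1.09).

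Trib1, a pseudokinase that steers protein degradation and behaves as an immediate early gene, differed in another way. Its BNST levels of 9.08, 9.92 and 10.5 CPM in controls overlapped the 11.1, 9.70 and 10.2 CPM after formalin. In the mPFC the controls stood at 39.8, 47.4 and 37.9 CPM and the formalin libraries at 25, 23.4 and 23.5 CPM. The mPFC fall of 0.80 on the log2 scale passed (adjusted p = 0.00419 in edgeR), the BNST change was 0.07 ± 0.10 (SE, n = 3 per group, adjusted p = 0.752), and the interaction was 0.87 (0.57 to 1.17, adjusted p = 0.023). Trib1 lay at a lower level in the BNST than in the mPFC in every library of either group.

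Of the 19 genes with a symbol and the BNST change below the mPFC change, Dgkb was among those with the largest interaction. Dgkb (chr12:37817726-38634239, plus strand, GRCm38) encodes diacylglycerol kinase beta, which removes the second messenger diacylglycerol in neurons. It stood at 314, 345 and 325 CPM in the control BNST and at 249.9, 228 and 176 CPM after formalin, whereas in the mPFC controls stood at 151, 162 and 137 CPM and formalin libraries at 194, 209.7 and 198 CPM. The groups overlapped in neither region, and the regions lay closer in level among formalin libraries than among controls. The interaction was -1.01 ± 0.16 (SE; -1.35 to -0.67, adjusted p = 0.0204 in edgeR), with a fall of 0.59 on the log2 scale in the BNST that passed (adjusted p = 0.0412) and an mPFC change of 0.42 that did not (adjusted p = 0.0954).

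Rgs2, a brake on Gq-coupled receptors, had an interaction of -0.64, with BNST levels of 88.6, 97.2 and 106 CPM in controls and 76.4, 76.1 and 64.6 CPM after formalin, and mPFC levels of 43.3, 41.1 and 46.7 CPM and 51.5, 49.1 and 51.3 CPM. Gucy1a1, a subunit of the nitric oxide receptor guanylyl cyclase, had an interaction of -0.59 (-0.78 to -0.41), and Pkia, an inhibitor of protein kinase A, one of -0.55, both named outside the rule after their values were seen. The BNST changes of Rgs2, Gucy1a1 and Pkia were -0.43, -0.40 and -0.22, and the mPFC changes 0.21, 0.19 and 0.33.

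Lrrtm3, a postsynaptic leucine-rich repeat protein that binds neurexins, stood at 55.8, 63.7 and 52.8 CPM in the control BNST and at 31.3, 37.2 and 40.02 CPM after formalin. In the mPFC it stood at 55.4, 52.7 and 51.5 CPM and at 57.0, 57.0 and 71.4 CPM, where 1 formalin library lay well above the others. Its interaction was -0.88 (-1.22 to -0.54, adjusted p = 0.0325 in edgeR). Lrrc4c, the netrin-G1 ligand, moved from 103, 88.2 and 104 CPM to 78.8, 74.0 and 70.5 CPM in the BNST and from 166, 154 and 149 CPM to 186, 191 and 207 CPM in the mPFC, an interaction of -0.72 (-0.98 to -0.46). Cdh7, a classical cadherin, had an interaction of -0.94, with a fall in the BNST that passed (-0.61, adjusted p = 0.0446) and overlapping libraries in the mPFC. Alcam and Negr1, cell adhesion molecules of the immunoglobulin superfamily that act in axon and neurite growth, had interactions of -0.61 each.

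Synpr encodes synaptoporin, a membrane protein of synaptic vesicles. Its BNST levels were 117, 133 and 102 CPM in controls and 89.6, 86.1 and 64.9 CPM after formalin, and its mPFC levels 78.4, 83.6 and 75.3 CPM and 109, 111 and 107 CPM. The formalin libraries of the mPFC thus lay above those of the BNST, the reverse of the order in controls. The interaction was -1.01 (-1.36 to -0.66, adjusted p = 0.023 in edgeR), and the BNST fall of 0.55 on the log2 scale passed (adjusted p = 0.048). Rab27b, a small GTPase of secretory vesicle docking, had changes of -0.37 and 0.37 and an interaction of -0.74. Fgf14, an intracellular partner of voltage-gated sodium channels, had an interaction of -0.64 (-0.88 to -0.39) with overlapping mPFC libraries.

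Of the rest, Dact2, a regulator of Wnt and TGF-beta signalling, had an interaction of -0.71 and Tmem158, a Ras-induced membrane protein, one of -0.62. Outside the naming rule, and picked after their values were seen, further called genes were Cyld, the deubiquitinase that restrains NF-kB (-0.59), Micu3, a regulator of mitochondrial calcium uptake (-0.56), Matr3, a nuclear matrix RNA-binding protein (-0.54) and D6Wsu163e (-0.54).

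**Figure D2:**
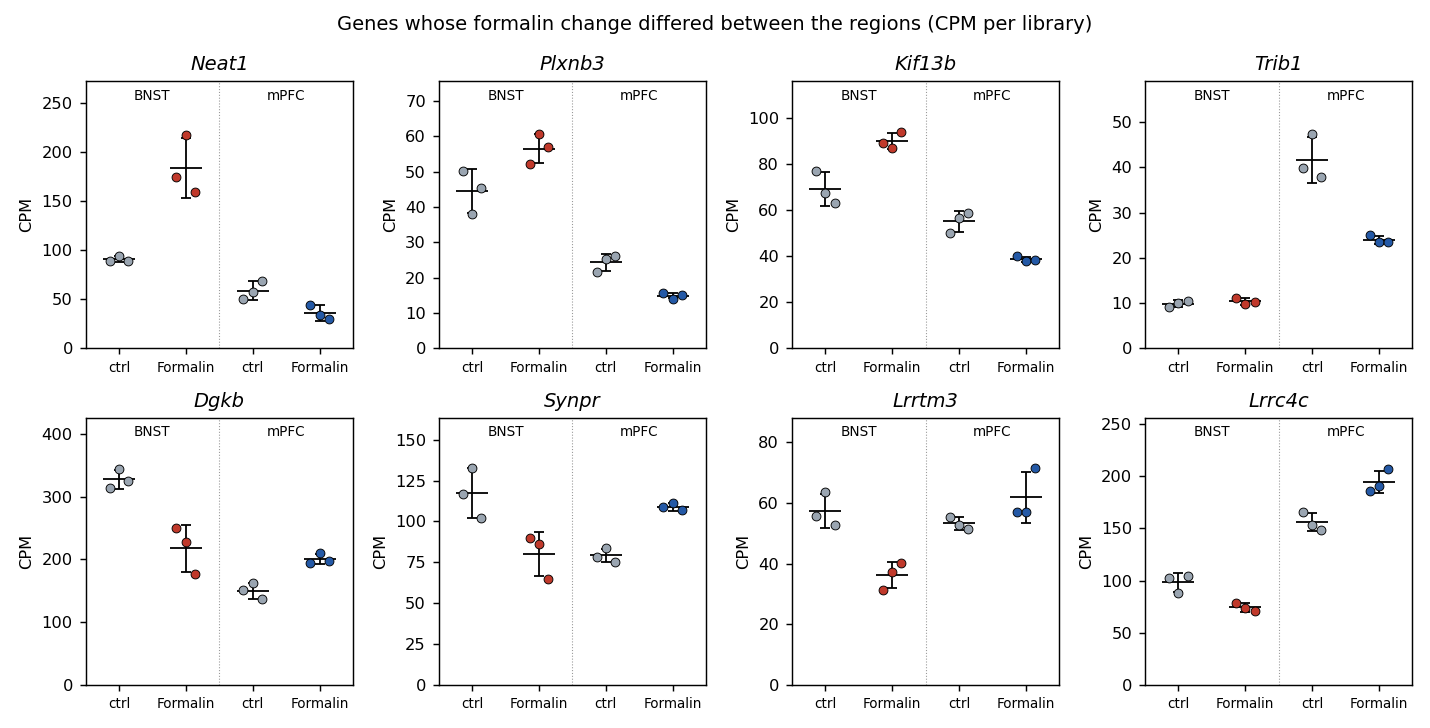
CPM in each of the 12 libraries for 8 genes called for the interaction, with bars for the group mean ± SD (n = 3) and control and formalin libraries of the BNST on the left and of the mPFC on the right of each panel. Neat1, Plxnb3 and Kif13b lay above their controls in the BNST and below them in the mPFC, Trib1 lay below its controls in the mPFC while its BNST groups overlapped, and Dgkb, Synpr, Lrrtm3 and Lrrc4c lay below controls in the BNST and above them in the mPFC.

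Several genes came close to the threshold without passing it. Padi2, a peptidylarginine deiminase, had an interaction of 1.12 (0.64 to 1.61, adjusted p = 0.0545 in edgeR), Hs3st1, a heparan sulfate sulfotransferase, one of 0.89 (adjusted p = 0.0543), Neil1, a DNA glycosylase, one of 0.74 (adjusted p = 0.0538), and Med12, a Mediator subunit, one of 0.63 (adjusted p = 0.0545). Llgl1, a cell polarity protein, had 0.46 (adjusted p = 0.0509). Cnr1, the CB1 cannabinoid receptor, fell in the BNST by 0.72 on the log2 scale (adjusted p = 0.0446) with an mPFC change of 0.17, but its interaction of -0.89 (-1.32 to -0.47) did not pass (adjusted p = 0.0803).

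Within a single region, formalin calls numbered 57 in the BNST (0.3%), 37 higher (0.195%) and 20 lower (0.105%), and 51 in the mPFC (0.269%), 12 higher (0.0632%) and 39 lower (0.205%). With no minimum change, 92 and 131 genes had an adjusted p under 0.05 in edgeR (0.484% and 0.69%). An unadjusted p under 0.05 was reached with a higher level by 9.26% of genes in the BNST and 7.02% in the mPFC, and with a lower level by 10.4% and 7.07%. No gene passed in both regions. Of the 57 BNST calls 21 had the same sign in the mPFC, and of the 51 mPFC calls 35 had the same sign in the BNST. Over all 18994 genes tested, 9835 had the same sign in both regions. In the BNST count, leaving out 1 library gave 2 to 903 calls, with 2 without formalin BNST replicate 1 or 3 and 903 without replicate 2 of the adjuvant BNST group. In the mPFC it gave 0 to 93, with 0 without formalin mPFC replicate 3, where 1855 genes kept an unadjusted p under 0.05 in edgeR. Lane moved with the BNST groups as given above, and its part in the BNST calls was not tested.

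The average of the BNST and mPFC changes passed for 6 genes (0.0316%), 2 higher (0.0105%) and 4 lower (0.0211%), with the same tool and thresholds. An unadjusted p under 0.05 was reached by 3281 genes (17.3%). Per the study's methods both regions came from the same brains, and the test of the average counts them as independent. Its p-values can therefore be too small. A term for each brain within treatment was fitted for the interaction only. With no minimum size of change, 16 genes had an adjusted p under 0.05 (0.0842%), 6 higher and 10 lower. All 16 had 1 sign in both regions, as had 9835 of the 18994 genes tested. The average is built from those same changes and favours genes with 1 sign, so this describes the called genes. A gene was called changed alike when its average passed, both changes had 1 sign, the interaction was smaller than the average and the interaction was not called. This held for 3 genes: Nr4a1, Scn7a and Ccdc159 (0.0158%). Because a missed threshold does not show equal changes, the interval of each interaction is given. It lay within 1 log2 unit either way for all 3, as for 60.7% of genes tested. That margin is wider than the average change of each of the 3, so it cannot show equal changes.

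Nr4a1 (chr15:101254269-101274795, plus strand, GRCm38) encodes the orphan nuclear receptor Nur77, an immediate early gene product. It stood at 45.0, 69.2 and 72.2 CPM in the control BNST and at 44.9, 32.1 and 34.2 CPM after formalin, and at 202, 204 and 183 CPM and 131, 103 and 118 CPM in the mPFC. The groups did not overlap in either region, though by 1 control library at the edge in the BNST. The changes were -0.75 ± 0.17 and -0.74 ± 0.16 (SE, n = 3 per group), the average was -0.74 ± 0.12 (adjusted p = 0.036 in edgeR), and the interaction was -0.01 (-0.49 to 0.48). The mPFC held more Nr4a1 than the BNST in every library, so a like change on the log2 scale was a larger one in CPM there.

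Scn7a (chr2:66673425-66784914, minus strand, GRCm38) encodes Nax, a sodium-sensing relative of the voltage-gated sodium channels. It stood at 7.79, 6.69 and 9.41 CPM in the control BNST and at 13.1, 14.3 and 15.5 CPM after formalin, and at 8.51, 9.19 and 8.18 CPM and 15.3, 15.1 and 12.5 CPM in the mPFC. All 6 formalin libraries lay above all 6 controls. The changes were 0.85 and 0.73, the average rose by 0.79 ± 0.12 (adjusted p = 0.02 in edgeR), and the interaction was 0.12 (-0.38 to 0.61). Ccdc159, a coiled-coil protein gene, stood at 11.3, 12.5 and 12.8 CPM in the control BNST and 8.6, 10.4 and 8.17 CPM after formalin, and at 19.9, 19.6 and 19.8 CPM and 12.7, 13.5 and 12.4 CPM in the mPFC. Its average was -0.52 (adjusted p = 0.0386) and its interaction 0.19 (-0.19 to 0.57).

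The other 3 genes with a passing average were less even between the regions, though the interaction passed for none of them. Rara, the retinoic acid receptor alpha, went from 5.31, 4.76 and 3.84 CPM to 12.7, 9 and 8.17 CPM in the BNST and from 10.7, 11.1 and 11.2 CPM to 15.7, 13.1 and 13.5 CPM in the mPFC, changes of 1.09 and 0.36 with an interaction of 0.73 (0.28 to 1.19, adjusted p = 0.146 in edgeR). Ccn1, a matricellular protein secreted by vascular and other cells, and Dll4, an endothelial Notch ligand, are named because their average passed, after their values were seen. Ccn1 had changes of -0.44 and -1.38, with mPFC levels of 10.8, 9.83 and 11.9 CPM in controls and 5.22, 2.54 and 4.59 CPM after formalin. Dll4 had changes of -0.62 and -2.11, with mPFC levels of 2.36, 2.02 and 1.96 CPM and 0.495, 0.619 and 0.342 CPM. Their interactions were 0.94 (0.30 to 1.58) and 1.49 (0.49 to 2.48).

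**Figure D3:**
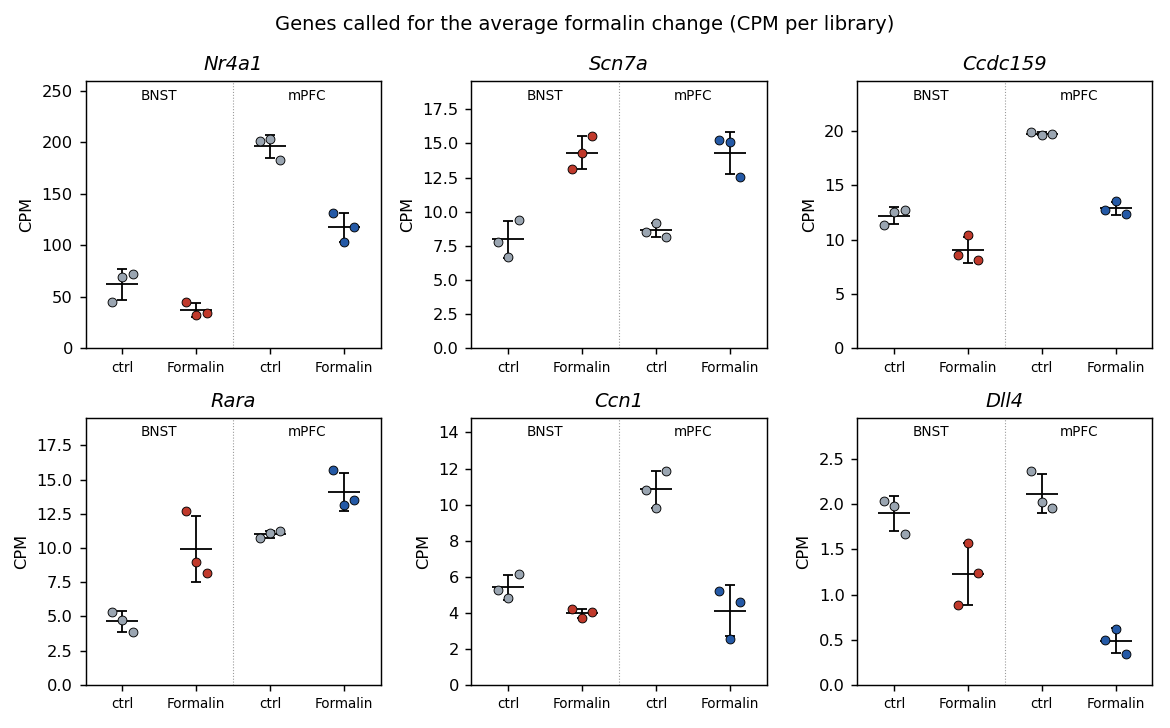
CPM in each of the 12 libraries for the 6 genes called for the average formalin change, with bars for the group mean ± SD (n = 3). Nr4a1, Scn7a and Ccdc159 in the upper row moved by like log2 amounts in the BNST and the mPFC, while Rara moved more in the BNST and Ccn1 and Dll4 more in the mPFC.

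A further 10 genes passed the average with changes under 0.5, and those named were chosen after their values were seen. Creb1, the transcription factor that binds cyclic AMP response elements, rose by 0.26 on average (0.18 and 0.34, adjusted p = 0.0401 in edgeR). Cycs, cytochrome c, rose by 0.29, Vma21, an assembly factor of the vacuolar proton pump, by 0.31, and Fam149a by 0.33. Srrt and Cpsf1, which act in RNA processing, fell by 0.30 and 0.26. Zfr2, Abcd4 and Csf2ra fell by 0.41, 0.43 and 0.46. Like changes were closest for Zfr2, at -0.38 and -0.44, and Fam149a, at 0.36 and 0.29. The count with an alike change was 0 without each of 7 libraries in turn (control BNST replicate 2, any control mPFC library, formalin BNST replicate 3 and formalin mPFC replicates 1 and 3), with 2702 to 3042 genes at an unadjusted p under 0.05 for the average in edgeR, and it was 28 without control BNST replicate 3 and 90 without replicate 2 of the adjuvant BNST group.

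Nr4a1 belongs to a list of immediate early genes, of which 31 of 34 were tested. For the average change, 10 of the 31 had an unadjusted p under 0.05 with a lower level (10.3% of all genes did) and 1 with a higher level (6.97%), and Nr4a1 alone passed. The median changes of the list were -0.13 in the BNST and -0.19 in the mPFC, against -0.04 and 0.00 over all genes. Fos, the classical activity marker, stood at 12.8, 31.0 and 56.8 CPM in the control BNST and 22.4, 9.22 and 24.8 CPM after formalin, and at 54.3, 46.2 and 45.9 CPM and 37.1, 19.5 and 33.7 CPM in the mPFC. The control BNST libraries spread widely in Fos and overlapped the formalin libraries, and the average of -0.76 ± 0.32 did not pass (adjusted p = 0.245 in edgeR). Arc, an activity-dependent synaptic protein, had changes of -0.59 and -0.90 (average adjusted p = 0.085). Dusp1, a phosphatase that switches off MAP kinases, had changes of -0.50 and -0.93 and an average of -0.72 (adjusted p = 0.0511), with the mPFC fall passing alone (adjusted p = 0.0384). With opposite signs in the regions, Homer1 had changes of -0.35 and 0.47 and Csrnp1 of 0.21 and -0.37, with interactions of -0.83 and 0.58 that did not pass (adjusted p = 0.144 for each).

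Promoters of 3 activity-regulated genes are shown because Nr4a1 was changed alike and CREB, the product of Creb1, is known to act through the cyclic AMP response element. Each is the 250 bases upstream of the start site in RefSeq (GRCm38.p6), written in the direction of transcription with half-sites TGACG or their reverse complement CGTCA in capitals. The full element TGACGTCA is a pair of overlapping half-sites.
Nr4a1 (chr15:101266596-101266845, plus strand): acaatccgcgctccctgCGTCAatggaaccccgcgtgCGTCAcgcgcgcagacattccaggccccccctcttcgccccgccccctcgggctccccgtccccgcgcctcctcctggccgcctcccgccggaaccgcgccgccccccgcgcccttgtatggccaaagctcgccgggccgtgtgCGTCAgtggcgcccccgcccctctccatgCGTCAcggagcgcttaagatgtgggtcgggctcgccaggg
Fos (chr12:85473640-85473889, plus strand): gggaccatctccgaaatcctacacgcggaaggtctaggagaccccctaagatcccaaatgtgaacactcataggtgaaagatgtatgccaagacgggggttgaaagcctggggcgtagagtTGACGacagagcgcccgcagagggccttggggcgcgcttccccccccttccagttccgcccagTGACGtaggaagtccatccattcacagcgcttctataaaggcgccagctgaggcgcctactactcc
Dusp1 (chr17:26508473-26508722, minus strand): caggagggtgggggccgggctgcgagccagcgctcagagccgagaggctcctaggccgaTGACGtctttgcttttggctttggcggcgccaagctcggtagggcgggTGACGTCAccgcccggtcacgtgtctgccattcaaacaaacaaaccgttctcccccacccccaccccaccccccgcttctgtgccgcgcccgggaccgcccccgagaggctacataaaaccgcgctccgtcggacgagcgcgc

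The Nr4a1 window holds 4 half-sites, the last starting 40 bases before the start site, the Fos window 2 and the Dusp1 window 3, of which 2 form a full element starting at -143. A half-site on either strand was found in 17.8% of the 32851 promoters in the table and the full element in 1.55%. Of the 34 immediate early genes 27 matched the table with 44 promoters, 56.8% of which held a half-site. Of the 26 interaction genes with a symbol 17 matched with 23 promoters, and 17.4% of these held one. Scn7a and Ccdc159 held none in this window. A match describes the letters and does not show binding.

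Myelin genes leaned towards the BNST as a list. All 12 markers of myelinating oligodendrocytes had a BNST change above their mPFC change (45.9% of all genes did), with a median of 0.48 in the BNST and -0.40 in the mPFC, and 8 of the 12 had an unadjusted p under 0.05 for the interaction in that direction (6.44% of all genes), but none passed. Mag, a myelin adhesion protein, stood at 295, 196 and 203 CPM in the control BNST and 323, 301 and 336 CPM after formalin, and at 87.7, 81.7 and 117 CPM and 63.8, 51.0 and 70.1 CPM in the mPFC, an interaction of 1.10 (adjusted p = 0.084 in edgeR). Ugt8a, which makes myelin galactolipids, had an interaction of 0.91 (adjusted p = 0.0817). Under the alternatives the list's median interaction ran from 0.68 to 1.16. The summed level of the 12 was 7085 to 10350 CPM in control and 10280 to 12690 CPM in formalin BNST libraries, which overlapped, and 2625 to 4095 CPM and 1860 to 2847 CPM in the mPFC, which overlapped too.

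Vascular and immune lists leaned the same way. All 12 endothelial markers had a BNST change above the mPFC change, with medians of 0.00 and -0.52, and 5 had an unadjusted p under 0.05 (6.44% of all genes). Kdr, the VEGF receptor of endothelium, stood at 8.47, 8.22 and 6.19 CPM in the control BNST and 8.90, 10.3 and 8.72 CPM after formalin, and at 8.35, 9.93 and 9.87 CPM and 7.30, 4.19 and 3.29 CPM in the mPFC, an interaction of 1.19 (adjusted p = 0.121 in edgeR). Of 19 interferon response genes 17 had the BNST change above, 8 with an unadjusted p under 0.05 (6.44% of all genes), and the medians were 0.51 and -0.13. Their summed level was 149.1 to 149.7 CPM in the control BNST and 206 to 235 CPM in the formalin BNST, against 154 to 173 CPM and 152 to 166 CPM in the mPFC. Of 18 NF-kB and cytokine signalling genes 17 had the BNST change above, 5 with an unadjusted p under 0.05 (6.44% of all genes), and the medians were 0.33 and -0.06. None of these genes passed for the interaction. The BNST sums of the interferon genes were higher in every formalin library than in every control. The same held for the choroid plexus and ependymal genes given above, whose part was not tested.

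Inhibitory receptor genes leaned the other way. All 14 GABA-A receptor subunit genes had a BNST change below the mPFC change, 7 with an unadjusted p under 0.05 (8.19% of all genes), and the medians were -0.29 and 0.19. None passed for the interaction. Gabra3, the alpha 3 subunit, stood at 115, 118 and 116 CPM in the control BNST and 67.6, 86.0 and 97.0 CPM after formalin, and at 194, 201 and 184 CPM and 215, 225 and 235 CPM in the mPFC, an interaction of -0.70 (adjusted p = 0.0867 in edgeR). The summed level of the 14 genes was 1875 to 1929 CPM in control and 1524 to 1685 CPM in formalin BNST libraries, and 1814 to 2079 CPM and 2214 to 2398 CPM in the mPFC, with no overlap in either region. The list's median interaction ran from -0.55 to -0.37 under the alternatives, and was -0.37 with GC correction. Among 22 glutamate receptor genes 19 had the BNST change below, with medians of -0.26 and 0.01. Of these, 6 had an unadjusted p under 0.05 (8.19% of all genes), and none passed for the interaction. Of 13 voltage-gated calcium channel genes 12 had it below, and 3 had an unadjusted p under 0.05 (8.19% of all genes), but within lane 2 the list's median interaction was 0.10 instead of -0.29.

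**Figure D4:**
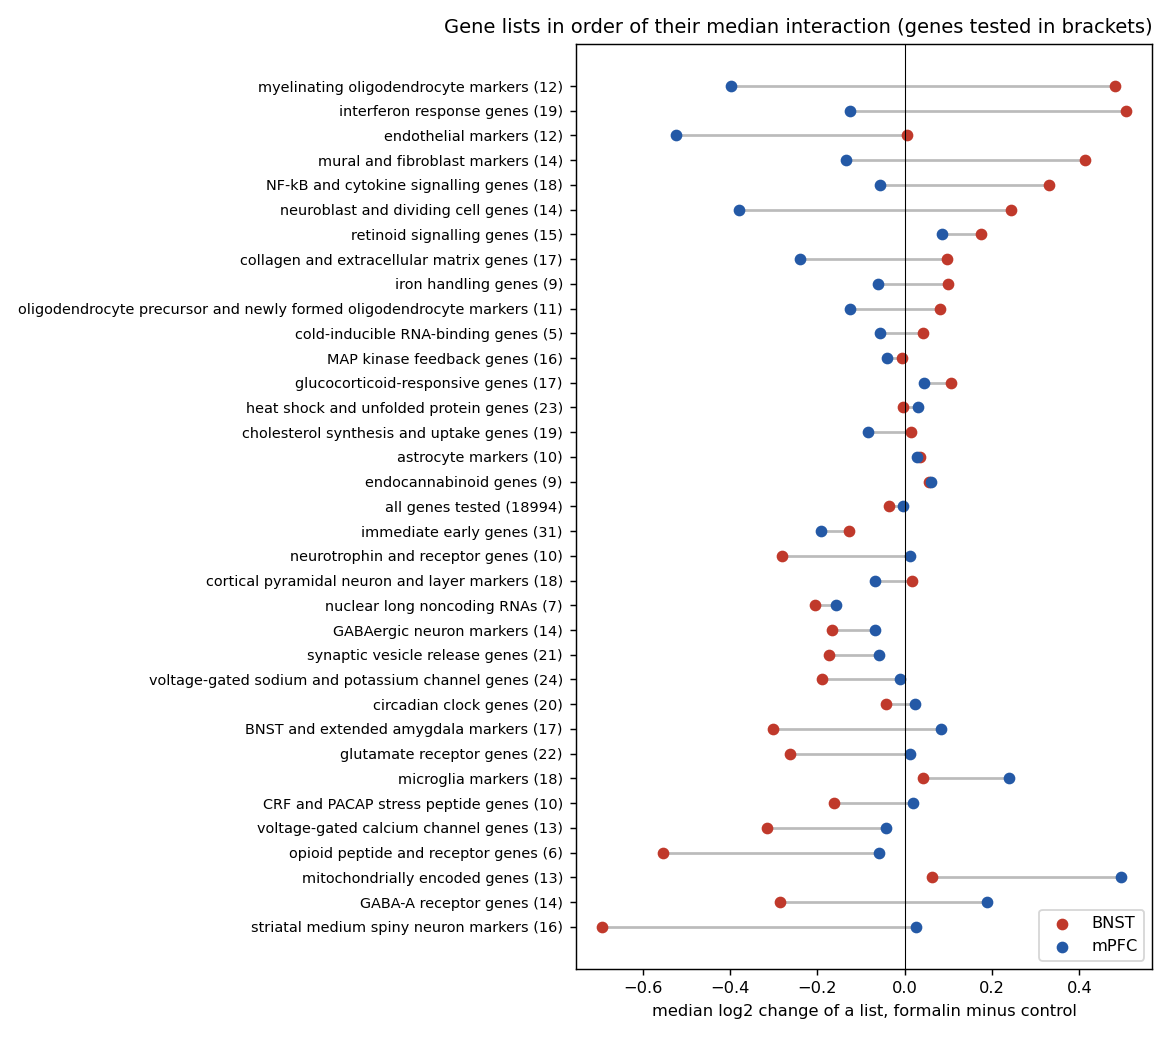
The median log2 change (formalin minus control) of the genes in each list is shown for the BNST in red and the mPFC in blue, with lists in order of their median interaction and the number of genes tested in brackets. Myelin, interferon and endothelial lists at the top had the BNST above the mPFC, striatal, GABA-A receptor and mitochondrially encoded lists at the bottom had it below, and the medians over all genes lay near 0; choroid plexus, ependymal, blood, habenula, thalamus, hypothalamus and study network lists are left out of the plot.

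Mitochondrially encoded genes, which code for subunits of the respiratory chain and the ATP synthase, had larger changes in the mPFC than in the BNST. All 13 had a BNST change below the mPFC change, 7 with an unadjusted p under 0.05 (8.19% of all genes), and the medians were 0.06 and 0.50. For the average, 9 of the 13 had an unadjusted p under 0.05 with a higher level (6.97% of all genes). None passed for the interaction or the average. In the mPFC alone mt-Nd1, a subunit of complex I, rose by 0.60 (adjusted p = 0.0318 in edgeR), the 1 of the 13 to pass (0.0632% of all genes). It stood at 5154, 5139 and 4791 CPM in the control BNST and 6007, 5878 and 5164 CPM after formalin, and at 4169, 4859 and 5668 CPM and 7134, 7254 and 7936 CPM in the mPFC. The summed share of the 13 was 41150 to 54300 CPM in control and 61790 to 70770 CPM in formalin mPFC libraries. In polyA-selected libraries this share can also move with RNA quality, whose part was not tested. Microglial markers had a median of 0.04 in the BNST and 0.24 in the mPFC, all 18 with the BNST change below, but within lane 2 their median interaction was -0.02 instead of -0.23. Of the 18, 6 had an unadjusted p under 0.05 for a higher average (6.97% of all genes).

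Of the 20 circadian clock genes 9 had an unadjusted p under 0.05 for the average, 4 higher and 5 lower (6.97% and 10.3% of all genes). Npas2, a partner of BMAL1, had changes of -0.45 and -0.19, and Bhlhe40, a clock repressor, of 0.26 and 0.29. The time of day of tissue collection was not given in the sources used here. Among genes of neighbouring tissue, the 16 striatal markers had medians of -0.69 in the BNST and 0.03 in the mPFC, but within lane 2 alone the median interaction was -0.04 instead of -0.72. All 11 ependymal genes had the BNST change above, with medians of 0.96 and -0.11. The 14 choroid plexus genes had medians of 3.98 and 0.96, with no interaction at an unadjusted p under 0.05, and counts so uneven within groups that Ttr ran from 2.35 to 579 CPM among the control BNST libraries.

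**Figure D5:**
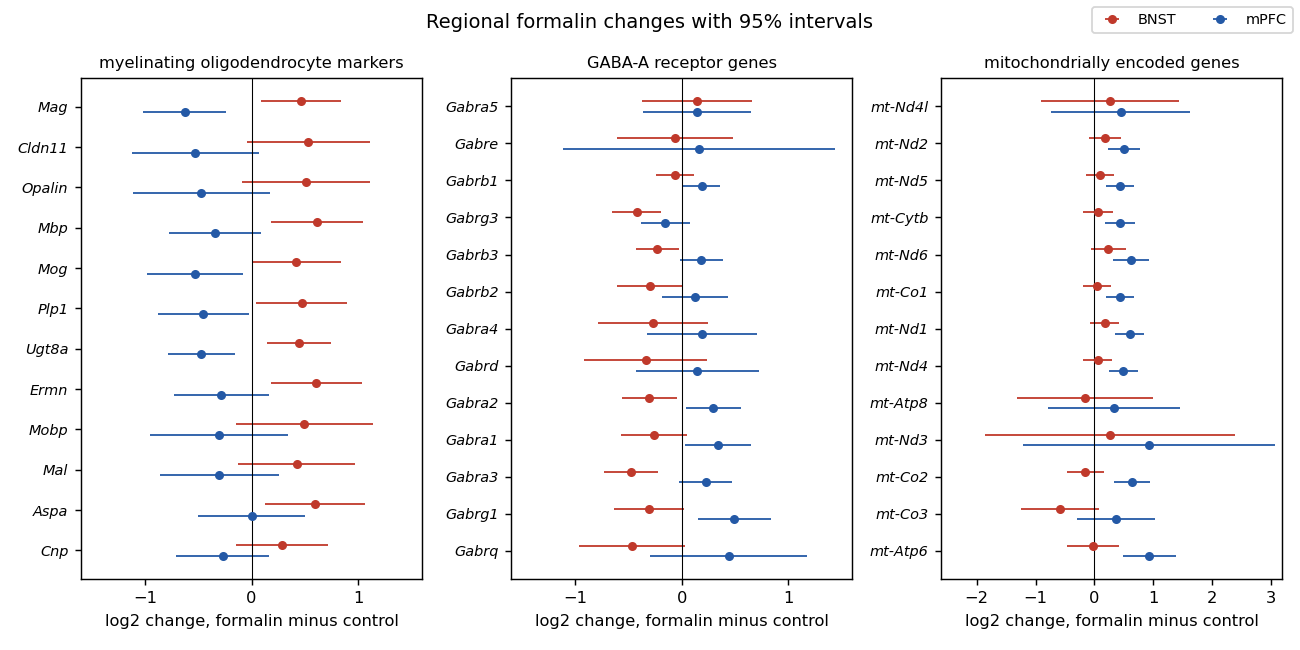
Log2 changes (formalin minus control) with 95% intervals are drawn for myelin markers, GABA-A receptor subunit genes (13 of the 14 tested) and mitochondrially encoded genes, BNST in red and mPFC in blue, on the scale of each panel. All 12 myelin markers had the BNST point to the right of the mPFC point, and the 13 GABA-A genes drawn and all 13 mitochondrially encoded genes had it to the left.

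Base composition moved with the formalin changes, more in the mPFC than in the BNST. Across 18392 genes with a transcript in the annotation, the Spearman correlation of transcript GC content with the log2 change was -0.299 in the mPFC and -0.0497 in the BNST, 0.165 with the interaction and -0.207 with the average; genes of a library share its depth and preparation, so these are descriptions. The interaction genes below had a median GC content of 43% (19 of 21 with a value), against 49.3% over all genes. For those above the median was 54%, but only 7 of 9 had a value, too few, so that side of the check is void. The 10 genes called for the interaction with counts corrected for GC content were all among the 30, and the 1 called for the average was none of the alike genes. The median interaction of the myelin list was then 0.99 and that of the mitochondrially encoded genes -0.28.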

How the data were processed

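Per the labels and the study's methods, polyadenylated RNA from dissected tissue was sequenced, and the authors trimmed reads with Trimmomatic 0.39, aligned them to GRCm38/mm10 with HISAT2 2.2.1, handled alignments with SAMtools and counted reads per gene with featureCounts 2.0.1. The deposited values are raw whole-number counts per gene, not normalised. Whether counting used strand is not given in the sources used here, so overlapping and antisense genes are uncertain. The authors' own comparison columns were not used.

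From these counts, genes passing edgeR's filterByExpr (minimum count 10, minimum total 15) were kept, 18994 of 55401, of which 602 have no symbol in the tables used here. Libraries were scaled by TMM and tested with edgeR 4.0.16 (robust quasi-likelihood, R 4.3.3) in 1 fit of 18 libraries and 6 groups (12 residual degrees of freedom), with Benjamini-Hochberg adjustment over all genes tested. Calls needed an adjusted p under 0.05 and an absolute log2 change over 0.5. CPM and transcript GC content (GENCODE M21) were computed here. Replicate counts differed beyond sampling noise (chi-square per degree of freedom 3.99 to 29.5), so each library counts once. Totals were 14781315 to 23408503 counts, and the 95% interval of the interaction had a median of 0.49 either way.

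Genes were named by rule: symbol, a mean of at least 5 CPM in a group, up to 12 interaction genes per direction filled by the smallest p, up to 10 alike genes per direction, up to 3 members per list and test, and genes named by the study or earlier. The genes, 41 lists and tests were chosen with earlier results of these data known. Some genes are not reported here. Per the study's methods, 3 brains per group gave both regions. The replicate numbers and the animal numbers in the table headers differ for controls, and deviations of same-numbered libraries of both regions correlated at 0.0104 to 0.166 by either numbering (1 of 6 and 2 of 5 pairs over 0.1), so both blocks are reported as alternatives. Alternatives used RLE scaling, DESeq2 1.42.0, limma 3.58.1 (voom), other filters, subsets of libraries, blocks, a GC offset, glmTreat and leaving out libraries. On simulated counts of 18994 genes, 50 genes each were given log2 interactions of 0.75, 1, 1.5 and 2. Of these 58%, 66%, 92% and 98% were recovered, with 4 unchanged genes called. The counts were independent draws around 1 level per gene in all libraries, and changed genes had a mean of at least 5 CPM. Only the formalin BNST group was moved. Regional differences, shared brains, lanes, an outlying library and differing neighbouring tissue were not simulated, so these shares hold for that setting only.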

Additional observations from a re-analysis of the deposited data

Results flagged for a closer look

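The formalin change differed between the BNST and the mPFC, by the interaction term in edgeR, for 30 genes. The values below are that interaction, the BNST change minus the mPFC change on the log2 scale, for genes with a symbol. Where the BNST change lay above, it was 1.72 for Neat1, 1.05 for Plxnb3, 1.03 for Prr5l, 1.01 for Ttyh2, 0.894 for Kif13b, 0.868 for Trib1 and 0.785 for Col11a2. Among neuronal signalling and channel genes with the BNST change below, it was -1.01 for Dgkb, -0.643 for Rgs2, -0.638 for Fgf14, -0.594 for Gucy1a1 and -0.553 for Pkia. For the adhesion and vesicle genes it was -1.01 for Synpr, -0.944 for Cdh7, -0.879 for Lrrtm3, -0.742 for Rab27b, -0.72 for Lrrc4c, -0.615 for Alcam and -0.607 for Negr1. For further genes it was -0.715 for Dact2, -0.622 for Tmem158, -0.587 for Cyld, -0.564 for Micu3, -0.539 for Matr3 and -0.537 for D6Wsu163e. Groups of 3 libraries were too small for a test of single outlying samples.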

How the results depend on the processing

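Every one of the 26 interaction genes with a symbol had the same direction under the 27 alternatives tried. This was largely fixed in advance, because the genes were picked for large interactions in the libraries that the alternatives reuse. The settings with glmTreat and with no minimum change keep the estimates of the main fit. The number of genes past the threshold moved widely. In the order interaction (30), average (6), BNST (57), mPFC (51) and alike (3), DESeq2 called 273, 80, 403, 133 and 50 genes, limma-voom with library weights 469, 291, 929, 309 and 132, and the 12 control and formalin libraries alone 327, 159, 760, 28 and 49. Of the interaction calls, 71.1%, 63.8% and 82.6% then lay above, against 30% here. Lane 2 libraries gave 367, 108, 389 and 40 for all but the mPFC. With no filter on low counts the interaction, average and alike counts were 84, 26 and 15, and a stricter filter gave 23 average and 12 alike genes. With no minimum change there were 16 average, 92 BNST, 131 mPFC and 10 alike genes. A test against the minimum change (glmTreat in edgeR) called 0 genes for all 5, with 679, 189, 772 and 247 at an unadjusted p under 0.05 for the first 4. The GC offset, chosen after seeing the data, gave 10 interaction, 1 average, 1 mPFC and 1 alike gene. Leaving out 1 library gave 0 to 525 interaction, 0 to 248 average, 2 to 903 BNST, 0 to 93 mPFC and 0 to 90 alike genes. The cause of these moves was not tested. RLE scaling and limma-voom kept the interaction count at 30 and 28.

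With an additive replicate block the counts were 51 interaction, 2 average, 30 mPFC and 1 alike gene. With the replicate block within treatment the interaction count was 12, and with the animal numbers of the headers as the pairing it was 5. The 95% interval of the interaction reached a median of 0.49 either way, and the parts of depth and of the spread between replicates in it were not tested.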

Other observations

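Other gene lists leaned in 1 direction without a member passing for the interaction in edgeR. All 14 genes of neuroblasts and dividing cells had the BNST change above the mPFC change (45.9% of all genes did), with medians of 0.24 and -0.38, and 1 had an unadjusted p under 0.05 in that direction, near the 6.44% of all genes. Of 17 collagen and extracellular matrix genes 15 had it above, and of 11 genes of oligodendrocyte precursors and newly formed oligodendrocytes 10. On the other side, 18 of 21 synaptic vesicle release genes and 19 of 24 voltage-gated sodium and potassium channel genes had the BNST change below, with 2 and 4 at an unadjusted p under 0.05 in that direction (8.19% of all genes). Within lane 2 neither list leaned, with median interactions of 0.01 and 0.0083 instead of -0.12 and -0.16.

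Astrocyte markers had medians of 0.03 in both regions, but the members went both ways. At an unadjusted p under 0.05 for the interaction, 2 of 10 lay above and 1 below (6.44% and 8.19% of all genes), and none passed. Gfap, the intermediate filament of astrocytes, stood at 107, 96 and 152 CPM in the control BNST and 326, 239.9 and 244 CPM after formalin, and at 73.6, 48.9 and 123 CPM and 73.3, 68.1 and 79.2 CPM in the mPFC. Its interaction was 1.35 (0.48 to 2.21, adjusted p = 0.166 in edgeR), and that of Id3, an inhibitor of helix-loop-helix transcription factors, was 0.98 (adjusted p = 0.236). GABAergic neuron markers had medians of -0.17 in the BNST and -0.07 in the mPFC with no member at an unadjusted p under 0.05 for the interaction. Heat shock and unfolded protein genes had medians of -0.0043 and 0.03. The 17 glucocorticoid-responsive genes tested had medians of 0.11 and 0.04, with 2 at an unadjusted p under 0.05, both above (6.44% of all genes).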
